A study of Homo sapiens with 18 samples.

Results

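The cell's means of clearing amyloid beta (Abeta), the peptide cut from the amyloid precursor protein (APP), were followed here through 9 genes. They encode 4 zinc metalloproteases of the cell surface and secretory pathway (MME, ECE1, ECE2 and ACE), the insulin-degrading enzyme IDE, the plasminogen activator PLAT, the lysosomal proteases CTSB and CTSD, and the secreted chaperone clusterin, CLU. The genes were picked by symbol for their part in Abeta clearance, with earlier results of these data known, and each symbol matched 1 of the 57905 Ensembl genes counted. All 9 passed the filter on low counts in each of the experiments, so every one was tested.

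Gene expression was measured by RNA-seq in BE(2)-m17, a human neuroblastoma cell line. Every line carried human APP in the Sleeping Beauty transposable vector pSBbi-Hyg, and all were selected as stable pools of transfected cells. They differed in the other vector, pSBbi-Pur, which held codon-optimized wild-type ABCC1 in the ABCC1-overexpressing cells and no insert in the empty vector control cells, named Puro. ABCC1 is an ABC transporter that exports conjugated organic anions across the plasma membrane. The lines were compared in 3 experiments, labelled RNA1 to RNA3 and called the first, the second and the third experiment here, with 3 libraries of each line per experiment and 18 in all. Each library came from 14000000 cells plated and lysed for RNA on day 4. By the methods of the study, the later experiments used cells thawed from storage in one case and a new transfection in the other, and the labels do not show which is which. The experiments are therefore not all repeats of the same transfected pools. The comparison asks whether overexpression of ABCC1 goes with a change in the transcripts that could alter how much Abeta remains.

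Abeta is removed by several routes. Peptidases at the cell surface, in endosomes and in the cytosol cut the soluble peptide into fragments, plasmin cuts it outside the cell after PLAT has made plasmin from plasminogen, and endocytosed peptide is broken down in lysosomes. Apolipoproteins and chaperones such as clusterin bind the peptide, hold it in solution and carry it to receptors that take it up. In the brain, neurons express neprilysin and the endothelin-converting enzymes, and astrocytes are a main source of clusterin.

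Between 8866994 and 57937653 counts per library were assigned to a feature. The codon-optimized ABCC1 insert had 51035 to 594404 counts in the 9 ABCC1 libraries and 0 to 15 in the 9 Puro libraries, so every library matched its label. The first experiment was made with an mRNA kit and the others with a total RNA kit on another instrument, so levels were compared within an experiment. The biological coefficient of variation was 5.67% in the first, 35.3% in the second and 19.7% in the third, so the errors of a fold change were smallest in the first. Of the 10 adrenergic neuroblastoma markers looked at, MYCN was among the highest, at 2888 CPM (counts scaled to an equal library total) in the first experiment's Puro libraries. The 10 markers of glia, blood or endothelium summed to between 2.00 and 2.78 CPM per library there, and each was below 1 CPM in the Puro mean. The cultures of each line were plated weekly by the methods of the study, but the labels do not say which culture gave which library, so the p-values measure the spread between these libraries. In such bulk samples, fewer cells that express a gene and less RNA of it per cell cannot be told apart.

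The promoter windows of 3 members are shown, out of 5 with a reference window at hand. MME and ECE1 are surface peptidases called in the joint fit below, and CTSD is a lysosomal protease that was not. They are RefSeq sequences on the GRCh38.p14 build, from 250 bases before to 50 after an annotated start of transcription, and capitals mark GC boxes (GGGCGG or, on the other strand, CCGCCC), the binding motif of SP1-type factors, and the E-box CACGTG. Overlapping or adjoining boxes run together in 1 block of capitals.
MME, chr3:155079422-155079721, plus strand: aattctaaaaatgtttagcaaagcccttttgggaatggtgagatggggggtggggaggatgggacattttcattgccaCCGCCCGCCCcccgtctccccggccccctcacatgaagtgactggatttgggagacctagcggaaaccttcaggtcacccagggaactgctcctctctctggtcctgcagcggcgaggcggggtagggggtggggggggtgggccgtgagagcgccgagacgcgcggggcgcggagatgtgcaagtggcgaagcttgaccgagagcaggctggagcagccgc
ECE1, chr1:21345455-21345754, minus strand: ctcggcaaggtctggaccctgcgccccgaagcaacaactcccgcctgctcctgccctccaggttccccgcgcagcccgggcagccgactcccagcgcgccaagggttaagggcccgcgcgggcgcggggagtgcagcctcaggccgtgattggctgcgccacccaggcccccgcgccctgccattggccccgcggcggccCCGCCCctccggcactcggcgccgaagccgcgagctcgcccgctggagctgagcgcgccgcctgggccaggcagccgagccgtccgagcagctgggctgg
CTSD, chr11:1763878-1764177, minus strand: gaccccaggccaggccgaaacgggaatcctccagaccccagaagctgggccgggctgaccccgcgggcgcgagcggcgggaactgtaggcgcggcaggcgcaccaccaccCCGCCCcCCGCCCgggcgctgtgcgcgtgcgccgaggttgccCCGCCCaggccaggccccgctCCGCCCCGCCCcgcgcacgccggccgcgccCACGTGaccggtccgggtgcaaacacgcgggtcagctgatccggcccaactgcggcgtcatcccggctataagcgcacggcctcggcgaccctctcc
The MME window, the first of 4 listed for this gene, held 2 overlapping GC boxes and 19 CpG dinucleotides, and 63.3% of its bases were G or C. The first of 4 ECE1 windows held 1 GC box and 37 CpG, and the single CTSD window 5 GC boxes and 43 CpG, both at 77.3% G or C. An E-box was found in the CTSD window only, starting at position −47 from the start of transcription. Over the 14 windows listed for MME, IDE, ECE1, ACE and CTSD, 9 held a GC box, 1 an E-box and 1, of ACE, the letters TATAAA, each searched on both strands. Among 35116 promoter windows of the same length, 44.95% held a GC box, 7.256% an E-box and 11.53% a TATA box. These matches describe the letters of the windows, and which start the cells used cannot be read from counts per gene.

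In the Puro cells of the first experiment the members spanned a wide range of levels. Per kilobase of exon, the lysosomal cysteine protease CTSB was highest at 36.7 ± 0.586 CPM per kb (SD, n = 3), and neprilysin, MME, was lowest at 0.300 ± 0.0405. Over all 6 libraries of this experiment the order was CTSB, ECE1, CTSD, CLU, IDE, ACE, ECE2, PLAT and MME. These values divide by the whole exon length, although reads on exons shared with another gene were left out. Of the ACE exon bases, 46.4% are shared with 1 gene and 17.4% with another, and of the CTSD exon bases 22.8% and 16.4%, so the levels of ACE and CTSD may be understated and their places in the order are uncertain. The ranges of neighbours in this order did not overlap except those of CLU, IDE and ACE, and CLU was above IDE in 3 of 6 libraries. With the total RNA kit the order was kept in the second experiment, and in the third ACE and IDE changed places. In both of these experiments the ranges of most neighbours overlapped, and in the third CTSB was above ECE1 in 3 of 6 libraries. PLAT and MME remained the lowest members, with every library of MME below every library of PLAT.

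**Figure D1:**
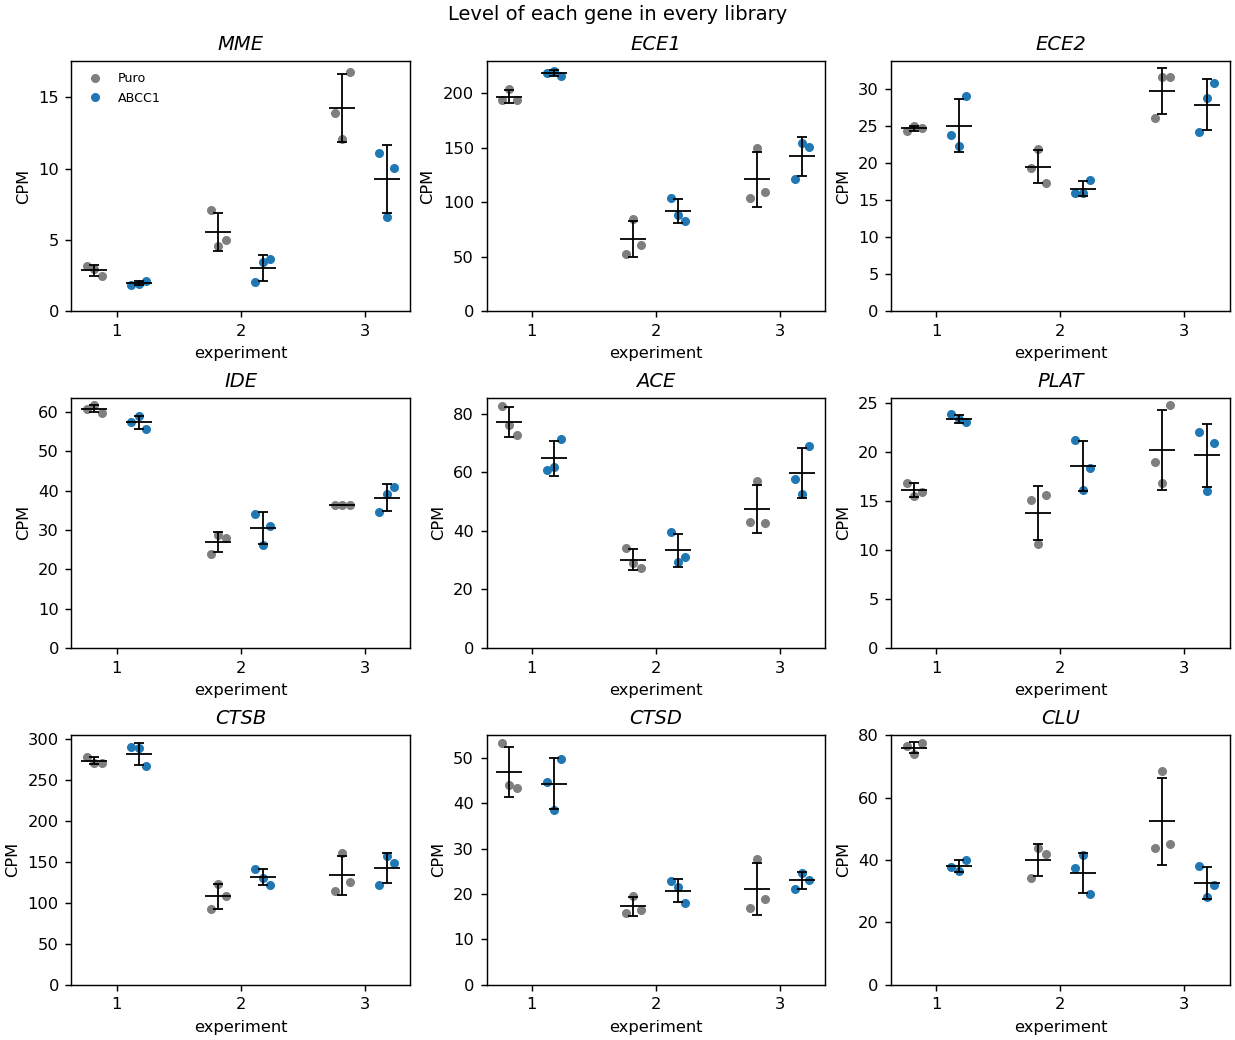
Level of each of the 9 genes in every library, in CPM normalized by TMM within an experiment (y axis from 0, linear), for the 3 experiments along the x axis. Grey points are Puro libraries, blue points ABCC1 libraries, and bars give the mean and SD of 3 libraries; CLU falls from 76.1 to 38.1 CPM in the first experiment, where the groups lie far apart, while its groups overlap in the second.

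MME lay at the background of the total RNA libraries, and in the third experiment PLAT was close to it too. Background was taken from 273 olfactory receptor genes, which encode odorant receptors of the nose and are read as silent in these cells. Their level was 0.00362 CPM per kb in the Puro and 0.00243 in the ABCC1 libraries of the first experiment. It was 0.618 ± 0.102 against 0.325 ± 0.155 CPM per kb (SD, n = 3 each) in the second, and 1.69 ± 0.0858 against 1.33 ± 0.194 in the third, so it was lower in the ABCC1 cells. MME per kilobase was 82.8 times this background in the Puro and 84.2 times in the ABCC1 libraries of the first experiment. It was 0.938 and 0.978 times the background in the second and 0.884 and 0.729 times in the third, that is, at or below it. For PLAT the background equalled 59.5% of its level in the Puro and 48.2% in the ABCC1 libraries of the third experiment, but 32.0% and 12.5% in the second. For CTSB it equalled at most 9.41% in any group.

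**Figure D2:**
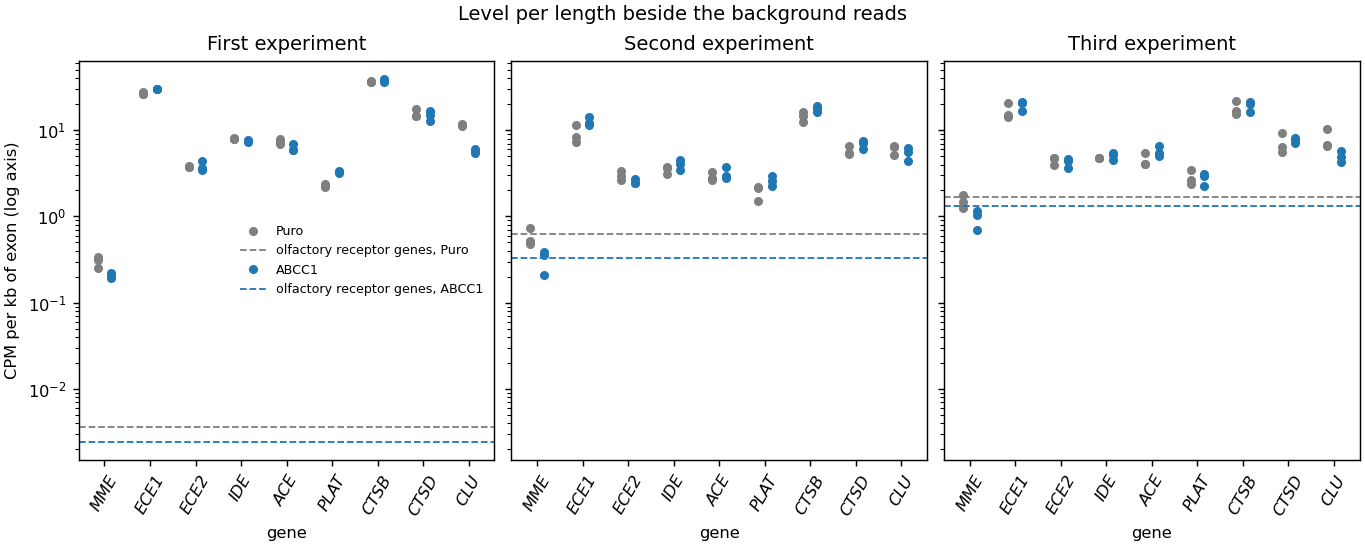
Level of the 9 genes per kilobase of exon (y axis, CPM per kb, log scale) in each library of the 3 experiments, grey for Puro and blue for ABCC1, with dashed lines at the mean of 273 olfactory receptor genes in each line. MME lies 82.8 times above the Puro line in the first experiment and at 0.938 and 0.884 times the Puro line in the second and the third.

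Differences between the lines were tested with edgeR's quasi-likelihood test, two-sided, with Benjamini-Hochberg adjustment over all genes tested, and a gene was called at an adjusted p of at most 0.05. In the first experiment 5 of 9 members were called, beside 37.6% of all 16995 genes tested. ECE1 and PLAT rose, beside 17.9% of all genes that rose, and MME, ACE and CLU fell, beside 19.7%. The libraries of the lines did not overlap for 6 members, IDE being the sixth, and this was so for 50.4% of all genes. In the second experiment 0 of 9 members were called by edgeR, beside 1.7% of 34091 genes (1.25% higher and 0.458% lower with ABCC1). DESeq2 called 1, beside 16.8% of the 16244 genes to which it gave an adjusted p. There 3 members had an unadjusted edgeR p below 0.05, namely MME, ECE1 and PLAT, beside 21.2% of all genes. The libraries of 2, MME and PLAT, did not overlap, beside 29.8% of all genes. The third experiment had 1 member called, CLU, which fell, beside 2.8% of 36509 genes in either direction and 0.767% that fell. An unadjusted edgeR p below 0.05 was found for 3 members, MME, CLU and ACE, beside 15.2% of all genes. MME and CLU did not overlap there, beside 19.5% of all genes.

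Fitting the 18 libraries together yielded a mean effect of ABCC1 over the experiments. This joint fit called 4 members, beside 12.9% of 46225 genes, with CLU and MME lower, beside 3.55% of genes that were lower, and ECE1 and PLAT higher, beside 9.38%. The interaction of experiment and line, which tests whether the effect differed between experiments, called 0 members with edgeR, beside 1.19% of genes, and 0 with DESeq2, beside 3.04% of 29196. For 2 members, CLU and PLAT, the interaction had an unadjusted edgeR p below 0.05, beside 9.04% of all genes. The median log2 fold change (log2FC, ABCC1 against Puro) of the 9 members was −0.080, 0.18 and 0.073 in the experiments in turn, and that of all genes tested was 0.0074, −0.19 and −0.091. Among genes of at least 10 CPM the median was 0.0051, 0.25 and 0.078, so the members were not above these genes.

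The scale of the second experiment and of the joint fit needs care. With the main scaling (TMM over all genes kept), the median log2FC of all genes of the second experiment was −0.19 while that of the 10058 genes with at least 10 CPM was 0.25. Scaling by the genes of at least 10 CPM, added after the data were seen, moved the median of all genes to −0.44 and that of the expressed genes to −0.0024. Under this scaling the second experiment's log2FC of IDE became −0.072 and that of ACE −0.13, and in the joint fit the values of IDE, ACE and CTSD turned negative, at −0.083, −0.066 and −0.034. CLU and MME kept their calls in the joint fit, at −0.74 and −0.82. The main joint fit was scaled by TMM over the 18 libraries together, and the median log2FC of its 10658 genes of at least 10 CPM was 0.19. Under the added scaling this median was −0.011, and ECE1 and PLAT were no longer called, at 0.15 and 0.17.

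**Figure D3:**
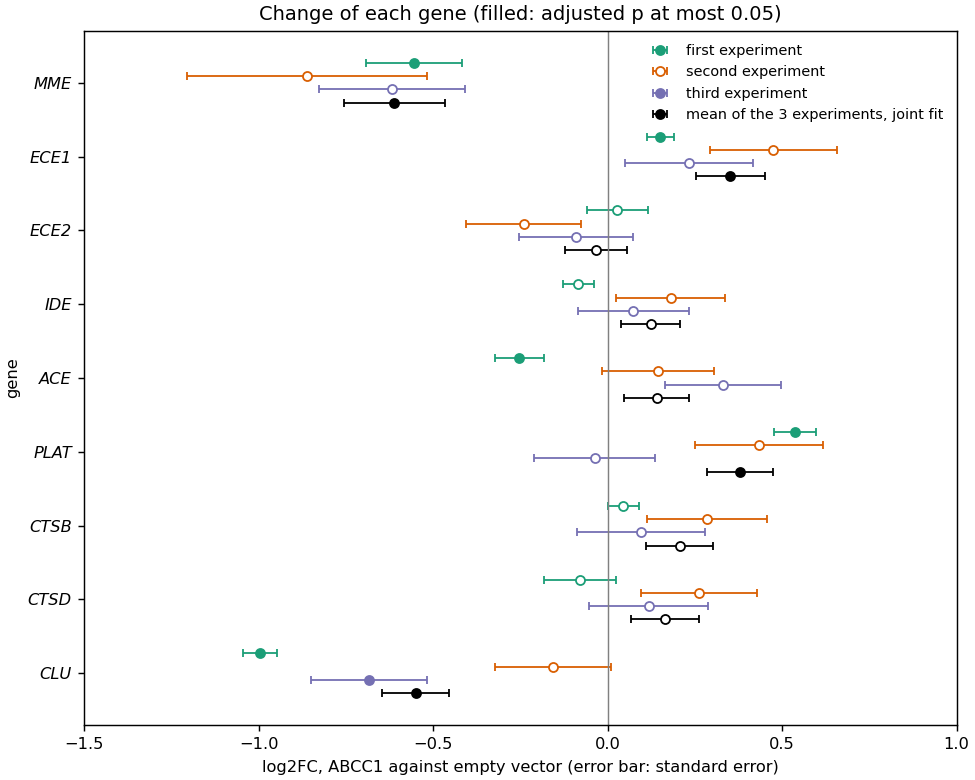
log2FC of each gene (x axis, ABCC1 against Puro, 0 marked by a line) with its standard error as the bar, by experiment in color and for the joint fit of 18 libraries in black; filled points have an adjusted p of at most 0.05. CLU and MME lie below 0 in each experiment, at −1.0, −0.16 and −0.68 and at −0.56, −0.86 and −0.62.

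Clusterin showed the largest change of the members in the first experiment. CLU (ENSG00000120885, on the minus strand of chr8:27454434-27472548 in GRCh37, with 6616 bp of exon) encodes a secreted chaperone, also called apolipoprotein J, that binds Abeta and slows its aggregation. Its level in the first experiment was 76.7, 74.2 and 77.4 CPM in Puro replicates 1 to 3 and 37.8, 36.4 and 40.1 CPM in ABCC1 replicates 1 to 3. The groups lay far apart, with each group within a narrow span. The mean fell from 76.1 ± 1.70 to 38.1 ± 1.89 CPM (SD, n = 3 each), a log2FC of −1.0 ± 0.050 (SE) with an edgeR adjusted p of 1.84e-07. It was called under all 13 alternative analyses of this experiment, with a log2FC between −1.03 and −0.89.

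In the second experiment CLU was at 34.3, 44.0 and 42.0 CPM in the Puro and 37.4, 41.5 and 29.0 CPM in the ABCC1 libraries. The groups overlapped, and only ABCC1 replicate 3 lay below every Puro library. The means of 40.1 ± 5.13 and 36.0 ± 6.41 CPM (SD, n = 3 each) gave a log2FC of −0.16 ± 0.17 (SE), which did not pass edgeR's test (adjusted p = 0.599). Without ABCC1 replicate 3 the log2FC was 0.012, with scaling by genes of at least 10 CPM it was −0.41 (edgeR adjusted p = 0.135), and with the background covariate −0.38 (0.923). The third experiment had 43.8, 68.5 and 45.1 CPM in the Puro libraries and 38.0, 28 and 31.9 CPM in the ABCC1 libraries. Here the groups did not overlap, although Puro replicate 2 stood above the other Puro libraries. The means were 52.5 ± 13.9 and 32.7 ± 5.05 CPM (SD, n = 3 each), and the log2FC was −0.68 ± 0.17 (SE; edgeR adjusted p = 0.00741). The call was lost without Puro replicate 2 (log2FC −0.44, edgeR adjusted p = 0.0561), ABCC1 replicate 2 (−0.58, 0.182) or ABCC1 replicate 3 (−0.66, 0.0834). With the background level of the libraries entered as a covariate it was kept, at a log2FC of −0.75 (edgeR adjusted p = 0.0177).

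Over the experiments the joint fit gave CLU a log2FC of −0.55 ± 0.096 (SE; edgeR adjusted p = 2.28e-05), a decrease to 0.683 of the Puro level. It was called under all 23 alternatives of the joint fit, with a log2FC between −0.74 and −0.45. The difference in effect, the second minus the first experiment, was 0.75 ± 0.23 log2 units (SE), which did not pass the test over all genes (edgeR adjusted p = 0.121). Across the 18 libraries, centred within each experiment, the genes whose level followed CLU most closely were HS6ST2 (Pearson r = 0.950), BASP1 (0.944) and BMP7 (0.939), of 13637 genes with at least 1 CPM in each experiment. HS6ST2 encodes a heparan sulfate sulfotransferase, BASP1 a membrane protein of growing axons, and BMP7 a secreted ligand of the TGF-beta family. These correlations are a description, since the libraries of an experiment share their kit and the same 2 lines.

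Neprilysin, the membrane metalloprotease taken as a main Abeta-degrading peptidase of the brain, was the member with the fewest reads. MME (ENSG00000196549, plus strand of chr3:154741913-154901497, 9566 bp of exon) had 139, 81 and 77 counts in the Puro libraries of the first experiment and 105, 61 and 123 in the ABCC1 libraries. As CPM these were 3.20, 2.97 and 2.44 against 1.86, 1.89 and 2.12. All ABCC1 libraries were below all Puro libraries. The mean fell from 2.87 ± 0.387 to 1.96 ± 0.144 CPM (SD, n = 3 each), a log2FC of −0.56 ± 0.14 (SE; edgeR adjusted p = 0.00910). The call was lost without Puro replicate 1 (log2FC −0.46, edgeR adjusted p = 0.0544) and with the spread shared across 18 libraries (−0.45, 0.581). The latter setting also takes the scaling and the filter of the joint fit.

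The mean of MME was also lower with ABCC1 in the other experiments, where the gene lay at the background. Its levels in the second were 7.07, 4.55 and 5.01 CPM in the Puro and 2.02, 3.44 and 3.68 CPM in the ABCC1 libraries, which did not overlap. The third experiment had 13.9, 12.1 and 16.8 CPM against 11.1, 6.62 and 10.1 CPM, again without overlap. Neither change passed edgeR's test, with a log2FC of −0.86 ± 0.34 (SE; adjusted p = 0.158) and −0.62 ± 0.21 (SE; adjusted p = 0.0884). Blocking on the replicate number gave −0.64 in the third experiment (edgeR adjusted p = 0.0346), which is a call. The background reads moved the same way as MME, and with them as a covariate the log2FC was −0.17 in the second and −0.26 in the third experiment, with edgeR adjusted p of 0.989 and 0.836. The covariate was not run for the joint fit. In these libraries a change of MME transcripts and a change of background cannot be told apart. The joint fit, which uses these libraries too, gave −0.61 ± 0.14 (SE; edgeR adjusted p = 0.00169). Above background, MME was measured in the first experiment only. LINC02073 (Pearson r = 0.928), SCUBE1 (0.919) and ADCK1 (0.909) were the genes with the pattern most like MME over the 18 libraries.

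The endothelin-converting enzymes cut big endothelin and, in acidic compartments, Abeta. ECE1 (ENSG00000117298, minus strand of chr1:21543740-21671997, 7265 bp of exon) was at 193, 204 and 193 CPM in the Puro and 219, 221 and 216 CPM in the ABCC1 libraries of the first experiment. The groups did not overlap, although they differed by a small amount. The mean rose from 196.8 ± 5.98 to 218.4 ± 2.43 CPM (SD, n = 3 each), by 11%, with a log2FC of 0.15 ± 0.039 (SE; edgeR adjusted p = 0.0112). The call was lost without Puro replicate 3 (0.14, edgeR adjusted p = 0.0562) and with the spread shared across 18 libraries (0.25, 0.741). Levels in the second experiment were 52.9, 84.3 and 60.8 CPM against 104, 88.6 and 82.8 CPM, and in the third 104, 150 and 109 CPM against 121, 154 and 150 CPM. The groups overlapped in both, through Puro replicate 2, which was the highest Puro library each time. The log2FC values of 0.47 ± 0.18 and 0.23 ± 0.18 (SE) did not pass edgeR's test (adjusted p = 0.144 and 0.596), while DESeq2 called the former (log2FC 0.58, adjusted p = 0.0494). In DESeq2's fit the median of the second experiment's genes of at least 10 CPM was itself 0.36, and the ECE1 value was 0.23 (edgeR adjusted p = 0.349) when scaled by these genes and 0.15 (0.974) with the background covariate. Without Puro replicate 2 the third experiment's value was 0.42 (edgeR adjusted p = 0.0466), and with the background covariate it was −0.16. The common effect in the joint fit was 0.35 ± 0.10 (SE; edgeR adjusted p = 0.0102), and 0.15 (adjusted p = 0.0959) when the libraries were scaled by the genes of at least 10 CPM.

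ECE2 (ENSG00000145194, plus strand of chr3:183967438-184010819, 6552 bp of exon), the neuroendocrine relative of ECE1, was between 22.3 and 29.1 CPM in the first, 15.9 and 21.9 in the second and 24.2 and 31.6 in the third experiment. Its groups overlapped in each, and the log2FC was 0.028 ± 0.088, −0.24 ± 0.16 and −0.091 ± 0.16 (SE), none past edgeR's test (adjusted p = 0.834, 0.395 and 0.847). In the joint fit the value was −0.035 with an edgeR adjusted p of 1.00, but −0.24 (0.0250) with the scaling by genes of at least 10 CPM and −0.22 (0.0150) with only genes of at least 10 counts in every library. The gene model counted here may include a neighbouring methyltransferase gene that newer annotations list apart, and 5.69% of its exon bases overlap CAMK2N2 on the opposite strand. Reads were counted without strand.

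Angiotensin-converting enzyme, a dipeptidyl carboxypeptidase of the cell surface that also cuts Abeta, was called lower in the first experiment and not called in the others. ACE (ENSG00000159640, plus strand of chr17:61554422-61599205, 10469 bp of exon) was at 82.7, 76.3 and 72.7 CPM in the Puro and 61.0, 61.8 and 71.6 CPM in the ABCC1 libraries of the first experiment. The highest ABCC1 library came close to the lowest Puro library without reaching it. The mean fell from 77.2 ± 5.05 to 64.8 ± 5.88 CPM (SD, n = 3 each), a log2FC of −0.25 ± 0.069 (SE; edgeR adjusted p = 0.0154). This call was lost without Puro replicate 1 (log2FC −0.20, edgeR adjusted p = 0.0798), Puro replicate 2 (−0.26, 0.0507) or ABCC1 replicate 1 (−0.21, 0.0543). The same held with the spread shared across 18 libraries (log2FC −0.15, edgeR adjusted p = 0.915). The other experiments had 34.1, 29.0 and 27.5 against 39.7, 29.3 and 31.1 CPM, and 43.0, 57.1 and 42.6 against 57.6, 52.8 and 69.2 CPM, with overlapping groups. The log2FC values were 0.14 ± 0.16 and 0.33 ± 0.17 (SE; edgeR adjusted p = 0.621 and 0.325). In the second the sign turned to −0.13 when scaled by genes of at least 10 CPM and to −0.064 with the background covariate. The third experiment's value was 0.49 without Puro replicate 2 (edgeR adjusted p = 0.0205). A test of whether the effect differed between experiments did not pass (edgeR adjusted p = 0.578). The gene that shares 46.4% of the ACE exon bases is a read-through gene on the same strand.

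Insulin-degrading enzyme, the cytosolic metalloprotease that cuts insulin and Abeta monomers, was not called in any experiment. IDE (ENSG00000119912, minus strand of chr10:94211441-94333833, 7607 bp of exon) was at 60.8 ± 0.920 CPM in the Puro and 57.3 ± 1.63 CPM in the ABCC1 libraries of the first experiment (SD, n = 3 each). The groups did not overlap, with every ABCC1 library lower, but the log2FC of −0.085 ± 0.044 (SE) did not pass edgeR's test (adjusted p = 0.157). In the second experiment the means were 26.8 ± 2.55 and 30.4 ± 4.07 CPM, and in the third 36.4 ± 0.0397 and 38.2 ± 3.32 CPM (SD, n = 3 each), with overlapping groups and a log2FC of 0.18 ± 0.16 and 0.073 ± 0.16 (SE; edgeR adjusted p = 0.513 and 0.878). A change smaller than these errors was not detectable.

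Tissue plasminogen activator, which turns plasminogen into the Abeta-cutting protease plasmin, rose in the first experiment. PLAT (ENSG00000104368, minus strand of chr8:42032236-42065242, 7133 bp of exon) was at 16.9, 15.5 and 15.9 CPM in the Puro and 23.8, 23.3 and 23 CPM in the ABCC1 libraries. Every ABCC1 library was above every Puro library by a gap wider than either group. The mean rose from 16.1 ± 0.693 to 23.4 ± 0.409 CPM (SD, n = 3 each), by 45.4%, with a log2FC of 0.54 ± 0.059 (SE; edgeR adjusted p = 5.58e-05). The call held under all 13 alternatives for this experiment.

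The second experiment had PLAT at 15.1, 10.6 and 15.6 CPM against 21.2, 16.1 and 18.4 CPM, which did not overlap. The log2FC of 0.43 ± 0.18 (SE) did not pass edgeR's test (adjusted p = 0.178), and it was 0.16 with the scaling by genes of at least 10 CPM. In the third, 18.9, 16.9 and 24.8 CPM in the Puro and 22, 16 and 20.9 CPM in the ABCC1 libraries overlapped, with a log2FC of −0.038 ± 0.17 (SE; edgeR adjusted p = 0.947). The joint fit gave 0.38 ± 0.095 (SE; edgeR adjusted p = 0.00312), which fell to 0.17 (0.384) with that scaling and to 0.19 (0.121) with only genes of at least 10 counts in every library. The difference in effect, the third minus the first experiment, was −0.60 ± 0.23 log2 units (SE) and did not pass the test over all genes (edgeR adjusted p = 0.442).

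The lysosomal proteases, CTSB and CTSD, were not called in any experiment by the main fit. CTSB (ENSG00000164733, minus strand of chr8:11700033-11726957, 7438 bp of exon), cathepsin B, is a cysteine protease that trims Abeta from its C-terminal end. It had 273.0 ± 4.36 CPM in the Puro and 281.6 ± 13.3 CPM in the ABCC1 libraries of the first experiment, 107.7 ± 15.2 and 131.2 ± 9.94 CPM in the second, and 133.2 ± 24.1 and 142.4 ± 18.3 CPM in the third (SD, n = 3 each). The groups overlapped each time, and the log2FC was 0.045 ± 0.044, 0.28 ± 0.17 and 0.096 ± 0.18 (SE; edgeR adjusted p = 0.459, 0.338 and 0.858). CTSD (ENSG00000117984, minus strand of chr11:1773982-1785222, 2999 bp of exon), cathepsin D, is the main aspartic protease of lysosomes. It had 46.9 ± 5.54 against 44.3 ± 5.64 CPM, 17.3 ± 2.03 against 20.7 ± 2.51 CPM and 21.2 ± 5.74 against 23 ± 1.78 CPM (SD, n = 3 each) in the experiments in turn. Its groups overlapped too, with a log2FC of −0.080 ± 0.10, 0.26 ± 0.17 and 0.12 ± 0.17 (SE; edgeR adjusted p = 0.582, 0.364 and 0.803). Scaled by genes of at least 10 CPM, the second experiment's log2FC was 0.034 for CTSB and 0.0062 for CTSD. The log2FC of 0.15 called for ECE1 in the first experiment is smaller than the errors of both proteases in the other experiments. The genes whose pattern was most like that of CTSD were NCLN (Pearson r = 0.930), MAPK8IP2 (0.926) and PLD3 (0.926), the last a lysosomal exonuclease.

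With 3 libraries against 3, an exact two-sided permutation test of a single gene cannot give a p below 0.1. It gave 0.1 for each of the non-overlapping comparisons above, so the tests rest on the spread that edgeR shares between genes.

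The genes around these members were looked at as 4 lists. The shares of all genes called by edgeR, to be set beside their counts, were 37.6% in the first experiment (17.9% higher, 19.7% lower), 1.7% in the second and 2.8% in the third. DESeq2 called 32.6%, 16.8% and 11.2% of the genes to which it gave an adjusted p. Of 12 other peptidases, some known to cut Abeta and others related to such enzymes, 11 were tested in the first experiment, where 2 rose and 4 fell by edgeR and DESeq2 called 4, beside 37.6% and 32.6% of all genes. NLN and TPP1 rose. LNPEP, the insulin-regulated aminopeptidase, fell from 54.3 ± 2.42 to 33.2 ± 1.03 CPM (SD, n = 3 each), a log2FC of −0.71. TPP1, a lysosomal tripeptidyl peptidase, rose from 35.9 ± 0.381 to 44.7 ± 3.41 CPM, a log2FC of 0.32. In the second and the third experiment edgeR called 0 of 12, with 2 and 3 at an unadjusted p below 0.05 and 0 and 1 called by DESeq2.

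The plasminogen system, in which PLAT acts, was represented by 11 further genes. Of the 8 tested in the first experiment, 3 rose and 2 fell, and DESeq2 called 3, beside 37.6% and 32.6% of all genes. S100A10, the plasminogen-binding partner of annexin A2, rose from 3.96 ± 0.308 to 11.3 ± 0.482 CPM (SD, n = 3 each), a log2FC of 1.52. SERPINE2, a secreted protease inhibitor, and ANXA2 fell, at a log2FC of −0.42 and −0.24. Plasminogen itself, PLG, had between 0 and 3 counts in each library of this experiment. edgeR called 0 of 11 in the second and in the third experiment, where 2 had an unadjusted p below 0.05 each time and DESeq2 called 0.

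Among 24 cathepsins, cystatins and genes of lysosomal sorting, 7 of 23 rose and 4 fell in the first experiment, a share of 47.8% called beside 37.6% of all genes. By edgeR 1 of 24, or 4.17%, rose in each of the others, beside 1.25% and 2.03% of all genes that rose. DESeq2 called 4 and 1 in either direction, beside 16.8% and 11.2%. An unadjusted edgeR p below 0.05 was found for 10 and 4 of 24, beside 21.2% and 15.2% of all genes. The median log2FC of the list was 0.26 and 0.10 there, close to the 0.25 and 0.078 of all genes of at least 10 CPM. Of the 10, CTSS and CTSZ were lower with ABCC1 and the others higher. Background equalled 61.2% of the Puro level of CTSS and 48.0% of that of CTSZ in the second experiment. CTSF, a lysosomal cysteine protease, rose from 23.2 ± 1.08 to 37.0 ± 0.320 CPM in the first and from 19.9 ± 3.14 to 32.2 ± 4.49 CPM in the second experiment (SD, n = 3 each). Its log2FC was 0.67 and 0.69, with edgeR adjusted p of 0.0357 in the second. In the third its log2FC was 0.16 (edgeR adjusted p = 0.694) and the groups overlapped. GNPTAB, a subunit of the phosphotransferase that makes the mannose 6-phosphate tag of lysosomal enzymes, rose in the first and the third experiment, with a log2FC of 0.17 and 0.58. Its value in the second was 0.42 (edgeR adjusted p = 0.145). NAGPA, the enzyme that uncovers this tag, rose in the first, from 6.87 ± 0.770 to 10.2 ± 1.34 CPM (SD, n = 3 each).

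Of 15 chaperones and receptors that bind or take up Abeta, 3 of 12 rose and 5 fell in the first experiment, beside 17.9% and 19.7% of all genes. APOE, LRP1 and LRP8 rose, by a log2FC of 0.59, 0.50 and 0.61. LRP2, VLDLR, CD36 and PICALM were among those that fell. So APOE, the other main apolipoprotein that binds Abeta, and CLU moved in opposite directions there. In the second experiment 1 of 14, CD36, fell, with a log2FC of −1.47, but the background equalled 102% of its Puro level and 150% of its ABCC1 level. DESeq2 called 6 of this list there, beside 16.8% of all genes with an adjusted p, and 7 of 14 had an unadjusted edgeR p below 0.05, beside 21.2%. Of the 7, APOE, LRP1, LRP8 and SCARB1 were higher with ABCC1, and LRP2, CD36 and SERPINA3 were lower. Background equalled 75.3% of the Puro level of LRP2 and 98.8% of that of SERPINA3. edgeR called 0 of 15 in the third, with 3 at an unadjusted p below 0.05 and 1 called by DESeq2.

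**Figure D4:**
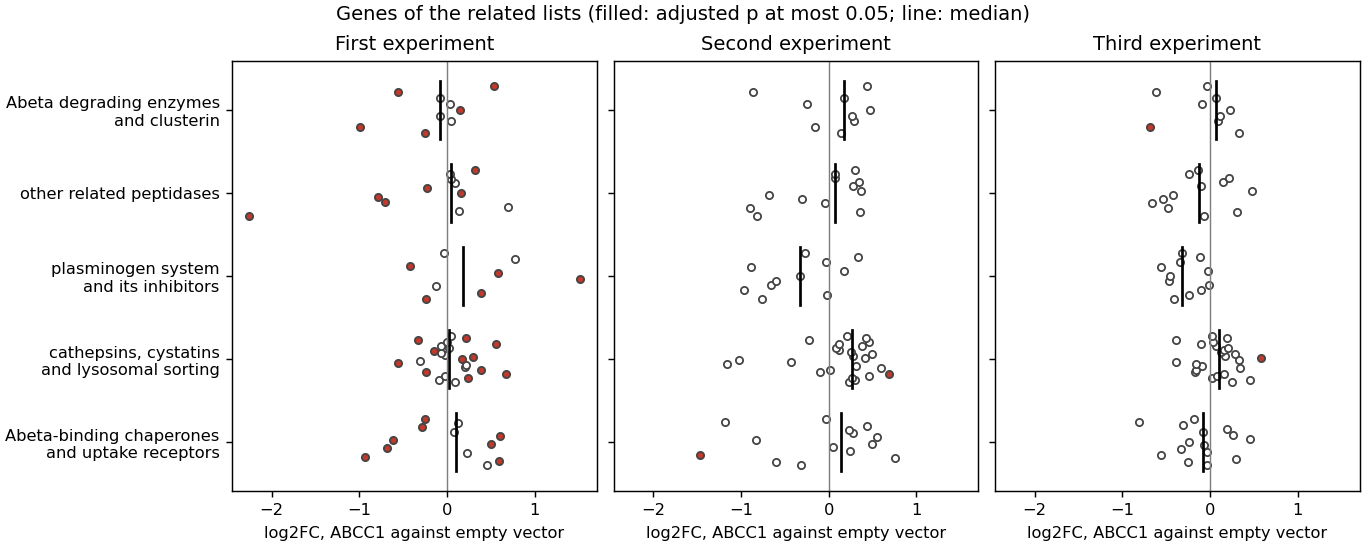
log2FC (x axis, ABCC1 against Puro) of each tested gene of the member list and the 4 related lists (rows) in the 3 experiments (panels); red points have an adjusted p of at most 0.05 and black lines are the median of a list. The first experiment holds 5 called members and most called genes of the lists, and the other panels hold between 0 and 1 per row.

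Markers of cell states also differed between the lines, and their part in the results above was not tested. In the first experiment 3 of 10 adrenergic markers rose and 5 fell, and 4 of 7 mesenchymal markers rose and 2 fell, beside 17.9% of all genes that rose and 19.7% that fell. The second experiment had 0 of 10 adrenergic markers called by edgeR, with 6 at an unadjusted p below 0.05 and 4 called by DESeq2, beside 1.7%, 21.2% and 16.8% of all genes. The median log2FC of these 10 markers was 0.28 there, beside 0.25 for all genes of at least 10 CPM. The third had 3 called by edgeR, of which 1 rose, beside 2.8%. Of 8 mesenchymal markers edgeR called 0 in each of these, with 2 and 1 at an unadjusted p below 0.05 and 1 and 0 called by DESeq2. The sum of the mesenchymal list was higher with ABCC1 in the first experiment, between 322.6 and 345.5 CPM in the Puro and between 369.4 and 371.2 CPM in the ABCC1 libraries. It overlapped between the lines in the second, at 232.1 to 351.9 against 254.9 to 282.8 CPM, and was lower with ABCC1 in the third, at 283.8 to 347.2 against 260.1 to 272.4 CPM. The mesenchymal transcription factors PRRX1 and TWIST1 fell in the first experiment, at a log2FC of −0.27 and −0.28. DCN, which encodes the matrix proteoglycan decorin, rose there by a log2FC of 0.99, and its values in the others were 0.26 and −0.057 (edgeR adjusted p = 0.401 and 0.921). The sum over the glia, blood and endothelium list was between 36.7 and 57.6 CPM in the Puro and between 13.1 and 31.7 CPM in the ABCC1 libraries of the second experiment, where the background was also lower with ABCC1. It was between 103.0 and 128.4 against between 85.6 and 105.6 CPM in the third.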

How the data were processed

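BE(2)-m17 lines were sequenced as described in the report. The authors aligned the reads with STAR 2.7.3a, after bcl2fastq 2.18, and counted read pairs on the exons of Ensembl 74 genes (GRCh37) with featureCounts 2.0.0, without strand and leaving out reads on more than 1 gene. The deposited values are these raw counts per gene, not normalized, with 8866994 to 57937653 per library as the depth. For the first experiment the labels name 2 library kits, and the mRNA kit given in the methods of the study was used. Kits differ between the first and the other experiments.

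Groups came from the labels. The fits used edgeR 4.0.16 in R 4.3.3 (filterByExpr at a minimum count of 10, TMM, robust quasi-likelihood test), per experiment and jointly over 18 libraries, with Benjamini-Hochberg adjustment over all genes tested. CPM are scaled by TMM and averaged unlogged, and CPM per kb are divided by exon length. The scripts were tested on simulated data. No 2 libraries of a group agreed within counting noise (chi-square per degree of freedom 1.49 to 22.7 over 18 pairs). Likeness used log2(CPM + 0.1). Alternatives were DESeq2 1.42.0, RLE size factors, other count filters, the replicate block, a background covariate, a shared spread and each library left out. The shared spread came from the joint fit, with the scaling and the filter of that fit. Permutation tests were exact.

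The members and lists were chosen with earlier results of these data known. Named were all 9 members and, of each list, genes called the same way in at least 2 experiments and up to 2 called genes per experiment with the largest change among those of at least 1 CPM. Some genes that this rule names are not reported here. Other list genes named were chosen after their values were seen. PECAM1 was not matched, leaving 10 markers in its list. Gene names came from RefSeq and Ensembl tables, which gave 51996 of 57905 IDs a symbol.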

Additional observations from a re-analysis of the deposited data

How the results depend on the processing

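Same-numbered libraries did not deviate together (mean correlation −0.050, −0.063 and 0.042 in the experiments), so the replicate numbers were not taken as pairs. With the replicate block the calls were 5 members in the first, 0 in the second and 2 in the third experiment (MME added, log2FC −0.64), 4 in the joint fit, and 5356, 709, 1885 and 5774 genes. Of the 9 members, CLU and MME kept their call in all 23 alternatives of the joint fit, ECE1 in 22 and PLAT in 21. The background covariate was run within the second and the third experiment and is not among these 23.

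With a spread shared across 18 libraries, 2 members (CLU, PLAT) and 1528 genes were called in the first experiment and 1 member (MME) and 4923 genes in the second. This setting took its values from the joint fit, so the scaling and the filter changed with the spread. The median log2FC of genes of at least 10 CPM was 0.11 in the first and 0.16 in the third experiment there, against 0.0051 and 0.078 in the main fits. IDE turned to 0.016 and CTSD to 0.024 in the first experiment under this setting, and PLAT to 0.043 in the third. DESeq2 called 1 member (ECE1) and 2727 genes in the second, 1553 genes in the third experiment and 888 genes for the interaction, and gave PLAT 0.024 in the third. RLE size factors gave 1086 genes in the second and PLAT 0.025 in the third. No filter gave 1399 genes in the second. At least 10 counts in every library gave 1725 genes in the third and 363 for the interaction, and joint log2FC of −0.062 (IDE), −0.045 (ACE) and −0.016 (CTSD). The background covariate left 10 genes in the second and 559 in the third experiment; IDE became −0.017 and ACE −0.064 in the second, and IDE −0.069, ECE1 −0.16, CTSB −0.27, CTSD −0.23 and PLAT 0.25 in the third. Scaling by genes of at least 10 CPM gave 207 and 1759 genes in the second and the third, and turned IDE to −0.072 and ACE to −0.13 in the second, IDE to −0.023 in the third, and IDE to −0.083, ACE to −0.066 and CTSD to −0.034 in the joint fit. The cause of these changes was not tested.

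Leaving out 1 library gave 3 to 6 called members in the first (fewest without Puro replicate 1) and 0 to 3 in the third experiment (none without ABCC1 replicate 2 or 3, most without Puro replicate 2). It gave 5 (without Puro replicate 3) to 1359 genes (without ABCC1 replicate 3) in the second, 394 (without ABCC1 replicate 3) to 2761 (without Puro replicate 2) in the third, and 334 (without ABCC1 replicate 1 of the first) to 1113 (without ABCC1 replicate 3 of the second) for the interaction. Directions turned for ECE2 (−0.090 to 0.10) and CTSD (−0.17 to 0.021) in the first, CLU (−0.26 to 0.012) in the second, ECE2 (−0.16 to 0.052) and PLAT (−0.14 to 0.16) in the third, and ECE2 (−0.086 to 0.018) in the joint fit. Joint calls of CTSB (0.28) and CTSD (0.27) appeared without Puro replicate 2 of the third. CTSB was called in the first experiment without its ABCC1 replicate 3 (log2FC 0.084, edgeR adjusted p = 0.0286). MME had the fewest counts of the members, and in the total RNA libraries its level was that of the background.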
